A study of Saccharomyces cerevisiae BY4741 with 9 samples.

Results

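The genes of branched-chain amino acid synthesis in budding yeast, ILV1, ILV2, ILV3, ILV5, ILV6, BAT1, BAT2, LEU1, LEU4 and LEU9, were followed in a cohesin loader mutant and in wild type (WT). They were taken by name from a deposited table of transcript levels, which held all 10 among its 7130 features. The mutant carried scc2-4, an allele of SCC2, the gene for a subunit of the loader that places cohesin on chromosomes, and both genotypes were labelled as the laboratory strain BY4741. Cultures of both genotypes grew in YPD+CSM, a rich glucose medium with a complete amino acid supplement, and were collected in exponential phase at an optical density of 0.7. The labels list 9 libraries, and the table has 3 columns for scc2-4 and 3 for WT, which the series' design calls biological replicates. All 3 mutant samples were depleted of ribosomal RNA, but the WT column names match both depleted and undepleted WT samples in the labels. If the WT columns came from undepleted RNA, preparation and genotype cannot be told apart in any comparison here. On the log2 scale, scc2-4 minus WT, the ribosomal RNA features RDN37-1, RDN58-1 and RDN5-1 differed by -0.39 ± 0.12, -0.52 ± 0.11 and -0.65 ± 0.39 (SE). Which preparation the WT columns hold was not tested.

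Leucine, isoleucine and valine are made by a shared set of enzymes, most of them in mitochondria. Isoleucine synthesis starts from threonine, valine synthesis from pyruvate, and the leucine branch leaves the valine pathway at its last keto acid. Transcription of these genes is known to respond to Gcn4, the activator of general amino acid control, and to Leu3, which activates its targets when it binds the leucine intermediate alpha-isopropylmalate. BY4741 lacks LEU2, the next enzyme of the leucine branch after the isomerase, so it takes its leucine from the medium.

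In scc2-4, ILV1, ILV5, ILV6 and LEU4 rose, BAT2 fell, and ILV2, ILV3, LEU1, LEU9 and BAT1 did not pass the test. The acetolactate synthase regulatory subunit gene ILV6 rose 2.01-fold and the reductoisomerase gene ILV5 2.07-fold, while BAT2, the cytosolic aminotransferase gene, was 1.87-fold lower. Thus 5 of 10 members were called, against 32.5% of the 6559 features tested, 4 of 10 higher against 17.5% and 1 of 10 lower against 15.0%. The genotypes were separate, with no overlap, for 7 of 10 members, against 54.5% of features, and every scc2-4 value exceeded every WT value for 6 of 10, against 30.9%. The difference from these background shares was not tested. The members higher numbered 2 without WT replicate 2 or scc2-4 replicate 1 and 1 without scc2-4 replicate 2 or 3, and over all features the number higher ran from 373 to 1360 when 1 library was left out, against 1149 with all 6. The median log2 change was 0.49 over the 10 members and 0.047 over all features tested. The test was limma on log2(RPKM + 1), where RPKM is reads scaled to feature length and library size. Libraries were centred on their median, and p-values were adjusted by the Benjamini-Hochberg method over all features, with a threshold of 0.05. In bulk cultures, fewer cells expressing a gene and less RNA per cell cannot be told apart.

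The stretches upstream of the 5 called genes are shown with those of BAT1, the mitochondrial partner of BAT2, and LEU1, the isomerase gene, because they hold, or lack, the motifs of the known regulators. Each runs 5' to 3' on the strand of the gene, from 250 to 91 bases before the start codon, from the RefSeq R64 assembly, the same build as sacCer3. Capitals mark TGACTC or its reverse complement, the core of the Gcn4 motif, and the Leu3 motif, CCG and CGG with any 4 bases between them.
ILV1: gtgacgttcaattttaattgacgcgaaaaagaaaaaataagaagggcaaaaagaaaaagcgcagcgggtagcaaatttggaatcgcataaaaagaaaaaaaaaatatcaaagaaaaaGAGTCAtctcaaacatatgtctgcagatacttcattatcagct
ILV5: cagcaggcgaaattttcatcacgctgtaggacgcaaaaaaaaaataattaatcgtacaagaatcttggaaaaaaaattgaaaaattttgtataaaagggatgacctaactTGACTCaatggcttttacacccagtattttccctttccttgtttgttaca
ILV6: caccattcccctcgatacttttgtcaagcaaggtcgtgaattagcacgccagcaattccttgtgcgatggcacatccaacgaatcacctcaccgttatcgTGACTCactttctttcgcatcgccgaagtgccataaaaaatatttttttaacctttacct
LEU4: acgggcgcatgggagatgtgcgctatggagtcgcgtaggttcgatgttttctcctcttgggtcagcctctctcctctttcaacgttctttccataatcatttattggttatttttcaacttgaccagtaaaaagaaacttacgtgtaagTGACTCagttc
LEU1: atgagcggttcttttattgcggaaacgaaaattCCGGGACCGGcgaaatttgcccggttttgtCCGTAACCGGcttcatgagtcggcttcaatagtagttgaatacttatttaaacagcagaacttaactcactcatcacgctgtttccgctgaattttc
BAT1: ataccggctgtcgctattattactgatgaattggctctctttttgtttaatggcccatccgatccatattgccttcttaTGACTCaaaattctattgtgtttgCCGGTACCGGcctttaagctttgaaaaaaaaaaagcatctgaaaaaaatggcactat
BAT2: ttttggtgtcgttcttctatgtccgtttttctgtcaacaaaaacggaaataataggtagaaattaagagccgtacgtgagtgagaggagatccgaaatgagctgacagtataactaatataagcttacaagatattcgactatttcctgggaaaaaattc

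These stretches lie at chrV:328227-328386 (plus) for ILV1, chrXII:839344-839503 (minus) for ILV5, chrIII:105639-105798 (minus) for ILV6 and chrXIV:426845-427004 (minus) for LEU4. Those of LEU1, BAT1 and BAT2 lie at chrVII:478743-478902 (minus), chrVIII:517282-517441 (plus) and chrX:705494-705653 (plus). Both motifs were searched on both strands in windows of 300 bases, from 250 before to 50 after the first base of the coding sequence. TGACTC was found for 6 of 10 members, ILV1, ILV3, ILV5, ILV6, BAT1 and LEU4, and in 8.09% of 6663 windows of protein-coding genes. All 4 members that rose were among these 6, as were ILV3 and BAT1, which did not pass. The longer form TGACTCA was found for 5 members, ILV3, ILV5, ILV6, BAT1 and LEU4, and in 2.72% of windows. ILV1, which rose, lacked this longer form. The Leu3 motif was found for LEU1 and BAT1 and in 1.49% of windows. With 500 bases before the start, TGACTC was found for 8 members and in 14.6% of windows, and the Leu3 motif for 6 members, BAT2 among them, and in 3.48% of windows. Of the members, ILV2 and BAT2 had no TGACTC in either window. A match describes letters only, and occupancy by either factor was not measured.

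**Figure D1:**
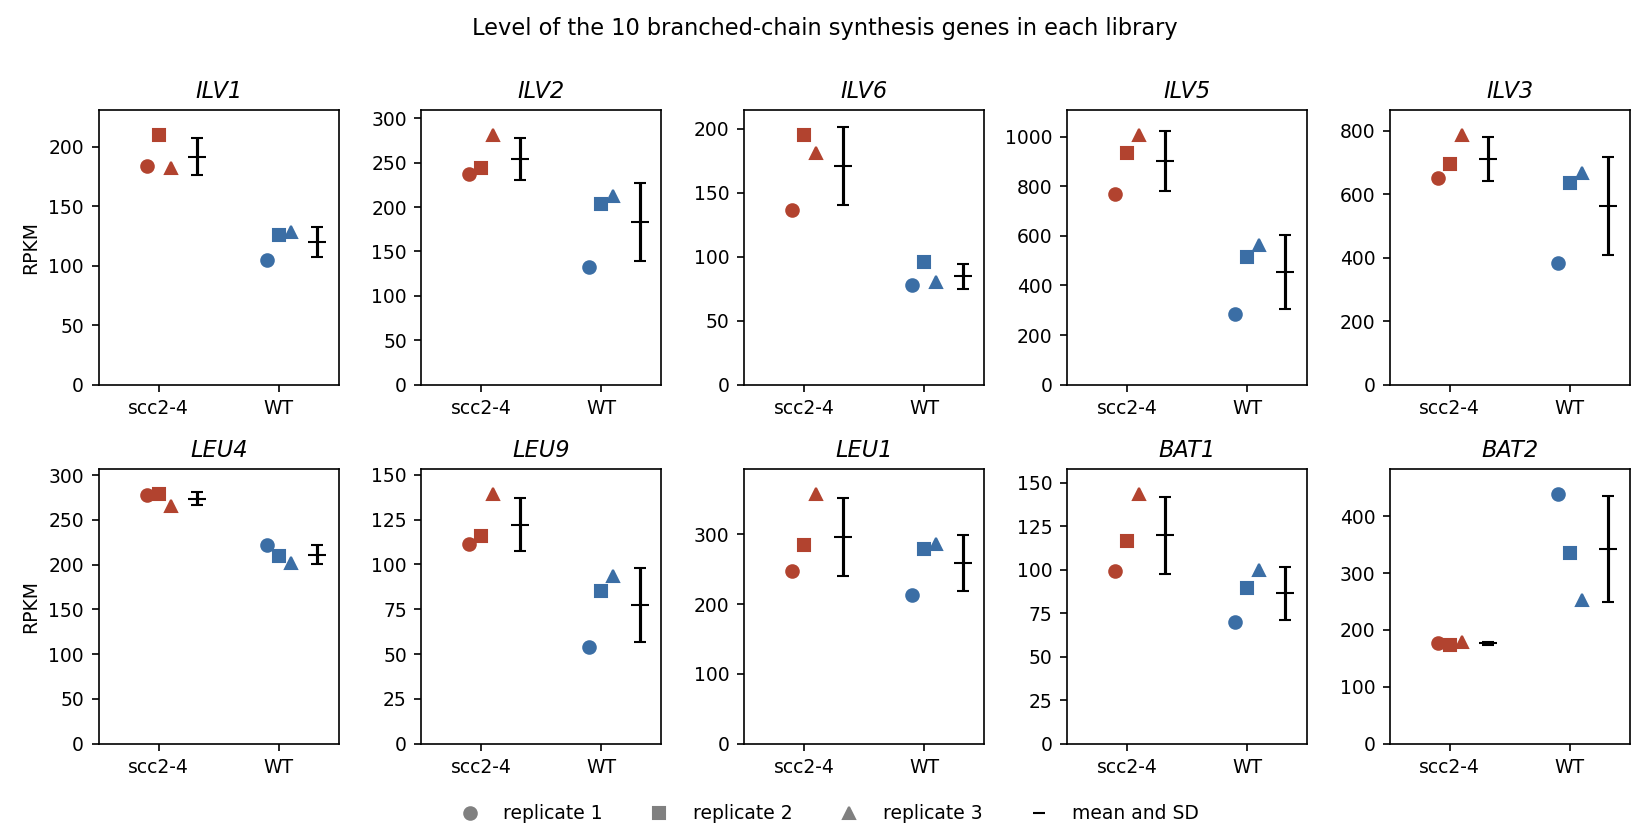
RPKM of the 10 genes in each library, with scc2-4 on the left and WT on the right of each panel; symbols mark replicates, and bars show mean and SD (n = 3 per genotype). For ILV1, ILV2, ILV5, ILV6, LEU4 and LEU9 every scc2-4 value lies above every WT value, and for BAT2 every scc2-4 value lies below.

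Threonine deaminase, the product of ILV1 (YER086W, chromosome V, 328477 to 330207), opens the isoleucine pathway. Its transcript stood at 184, 209.6 and 182 RPKM in scc2-4 replicates 1 to 3, against 105, 126 and 128 RPKM in WT replicates 1 to 3. The genotypes did not overlap. ILV1 averaged 192 ± 15.6 RPKM in scc2-4 and 119.6 ± 12.7 RPKM in WT (SD, n = 3 each), a log2 change of 0.69 ± 0.14 (SE), or 1.61-fold (limma adjusted p = 0.0138). The call ended without scc2-4 replicate 2 or 3 (limma adjusted p = 0.0615 and 0.0518), with values of 0.00373 to 0.0615 across alternatives.

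Acetolactate synthase, the first enzyme shared by isoleucine and valine synthesis, has a catalytic subunit encoded by ILV2 and a regulatory subunit encoded by ILV6 that confers feedback inhibition by valine. ILV6 (YCL009C, chromosome III, 104619 to 105548) stood at 137, 195 and 181 RPKM in scc2-4, against 77.7, 95.8 and 80.2 RPKM in WT. All mutant libraries lay above all WT libraries. It averaged 171 ± 30.4 RPKM in scc2-4 and 84.5 ± 9.82 RPKM in WT (SD, n = 3 each), a log2 change of 1.01 ± 0.18 (limma adjusted p = 0.00869), and it passed in all 6 fits that left out a library. ILV2 (YMR108W, chromosome XIII, 484084 to 486147) stood at 238, 244 and 281 RPKM in scc2-4, against 133, 204 and 213 RPKM in WT. The genotypes did not overlap for ILV2 either, but WT replicate 1 was far below the other WT libraries. Its log2 change of 0.51 ± 0.22 did not pass (limma adjusted p = 0.117), with a 95% interval from 0.99-fold to 2.05-fold, and without WT replicate 1 it was 0.25, or 1.19-fold.

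Reductoisomerase and dihydroxyacid dehydratase follow in both pathways. ILV5 (YLR355C, chromosome XII, 838066 to 839253), the gene for the reductoisomerase, which also helps to keep mitochondrial DNA stable, stood at 768, 933.5 and 1006 RPKM in scc2-4, against 284, 516 and 561 RPKM in WT. Again all mutant libraries lay above all WT libraries. ILV5 averaged 902 ± 122 RPKM in scc2-4 and 454 ± 149 RPKM in WT (SD, n = 3 each), a log2 change of 1.05 ± 0.30 (limma adjusted p = 0.0338). Without WT replicate 1 the change was 1.63-fold and passed. The call ended without WT replicate 2 (limma adjusted p = 0.0523) and without scc2-4 replicate 1, 2 or 3 (0.0658, 0.105 and 0.113), with values of 0.00830 to 0.113 across alternatives. ILV3 (YJR016C, chromosome X, 464451 to 466208), the gene for the dehydratase, an iron-sulfur enzyme, stood at 653, 696 and 786 RPKM in scc2-4, against 384, 636 and 667 RPKM in WT. Its genotypes overlapped, since WT replicate 3 lay above scc2-4 replicate 1. The log2 change of 0.39 ± 0.25 did not pass (limma adjusted p = 0.260; 95% interval 0.87-fold to 1.97-fold), and without WT replicate 1 the value was 1.07-fold.

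Of the leucine branch, LEU4 rose, LEU9 had a larger log2 change that did not pass, and LEU1 did not pass. LEU4 (YNL104C, chromosome XIV, 424895 to 426754), the gene for the main alpha-isopropylmalate synthase, stood at 277, 279 and 265 RPKM in scc2-4, against 222, 209.8 and 202 RPKM in WT. Replicates lay close together in both genotypes, which did not overlap. LEU4 averaged 274 ± 7.44 RPKM in scc2-4 and 211 ± 10.4 RPKM in WT (SD, n = 3 each), a log2 change of 0.38 ± 0.090, or 1.30-fold (limma adjusted p = 0.0202). Its call ended without WT replicate 2 and without scc2-4 replicate 1, 2 or 3 (limma adjusted p = 0.0575, 0.0685, 0.0834 and 0.0736), with values of 0.00813 to 0.0834 across alternatives, while its log2 change stayed between 0.37 and 0.41. LEU9 (YOR108W, chromosome XV, 523027 to 524841), the gene for the second synthase, stood at 112, 116 and 139 RPKM in scc2-4, against 53.7, 85.0 and 93.4 RPKM in WT. The genotypes did not overlap, and WT replicate 1 was the lowest library. The log2 change of LEU9 was 0.69 ± 0.24 (limma adjusted p = 0.0656; 95% interval 1.09-fold to 2.41-fold, not adjusted over features). It passed without WT replicate 1, where it was 1.33-fold (limma adjusted p = 0.0350), without WT replicate 3 (0.0351) and with no centring (0.0490), with values of 0.0245 to 0.193 across alternatives. Both synthase genes overlap a small feature of the table, LEU4 with YNL103W-A and LEU9 with YOR108C-A, and the sources do not state whether reads were counted by strand, so reads of each pair cannot be told apart.

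LEU1 (YGL009C, chromosome VII, 476313 to 478652), the gene for isopropylmalate isomerase, a cytosolic iron-sulfur enzyme, stood at 247, 285 and 357 RPKM in scc2-4, against 213, 279 and 286 RPKM in WT. Its genotypes overlapped. The log2 change was 0.20 ± 0.21 (limma adjusted p = 0.472; 95% interval 0.82-fold to 1.60-fold), and without WT replicate 1 it was 0.021. LEU2 (YCL018W, chromosome III), the dehydrogenase gene deleted in BY4741, was listed at 0 RPKM in all 6 libraries, where 3 reads would be worth 0.125 to 0.186 RPKM.

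**Figure D2:**
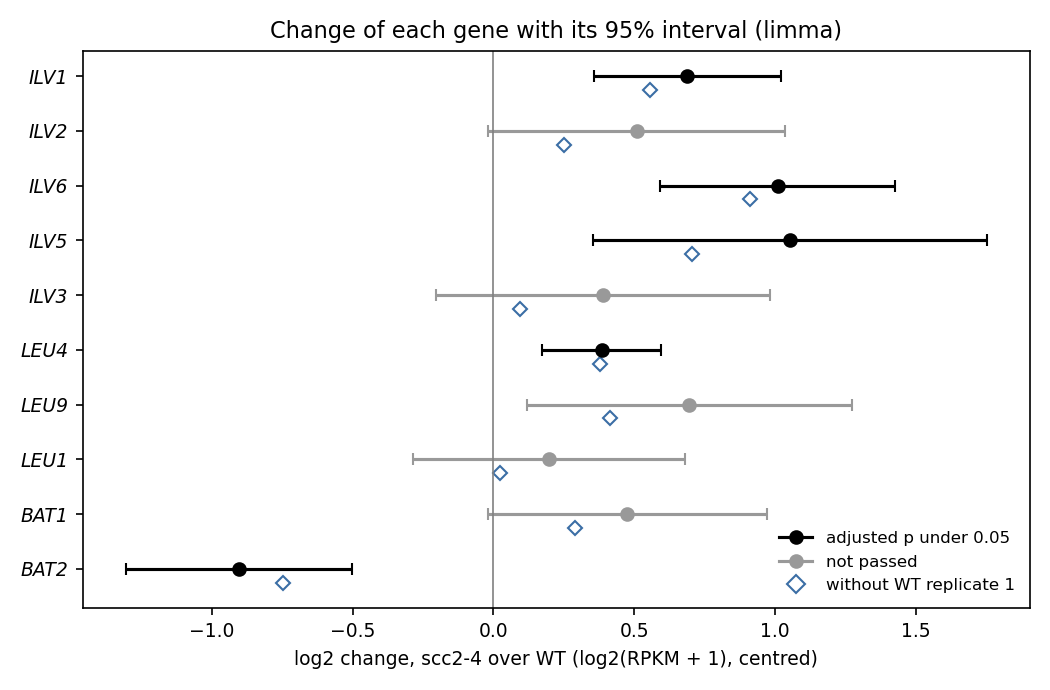
Log2 change of each gene, scc2-4 over WT, with its 95% interval from limma; black marks an adjusted p under 0.05, gray a gene that did not pass, and open diamonds the change without WT replicate 1. Leaving out WT replicate 1 moved every change toward 0, least for LEU4, at 0.38 with and without that library.

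The aminotransferases exchange the amino group between glutamate and the branched-chain amino acids. BAT1 encodes the mitochondrial enzyme, known for synthesis during growth, and BAT2 the cytosolic one, known for breakdown. BAT2 (YJR148W, chromosome X, 705744 to 706874) stood at 177, 173 and 179.7 RPKM in scc2-4, against 439, 335 and 253 RPKM in WT. The mutant libraries were nearly level and all below the WT libraries, which spread widely, with WT replicate 1 the highest. BAT2 averaged 177 ± 3.17 RPKM in scc2-4 and 342 ± 93.1 RPKM in WT (SD, n = 3 each), a log2 change of -0.90 ± 0.17 (limma adjusted p = 0.0107), and passed in all 6 fits that left out a library. Without WT replicate 1 it was 1.68-fold lower. BAT1 (YHR208W, chromosome VIII, 517532 to 518713) stood at 99.3, 117 and 143 RPKM in scc2-4, against 69.8, 89.4 and 100 RPKM in WT. Its genotypes touched, since scc2-4 replicate 1 lay just below WT replicate 3. The log2 change of 0.48 ± 0.21 did not pass (limma adjusted p = 0.118; 95% interval 0.99-fold to 1.96-fold), and without WT replicate 1 it was 0.29, or 1.22-fold.

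Ratios between partner genes within a library do not depend on how libraries are scaled. The ratio of BAT1 to BAT2 RPKM was 0.562, 0.672 and 0.798 in scc2-4 replicates 1 to 3, against 0.159, 0.267 and 0.396 in WT replicates 1 to 3. Every scc2-4 ratio exceeded every WT ratio, and BAT2 stayed above BAT1 in all 6 libraries. The mean log2 ratio of RPKM + 1 was -0.57 ± 0.25 in scc2-4 and -1.95 ± 0.65 in WT (SD, n = 3 each), a 2.60-fold difference (exact two-sided permutation p = 0.1, the smallest that 3 against 3 allows, and 0.3 adjusted over 3 ratios). Without WT replicate 1 the log2 difference was 1.04, compared with 1.38 with all libraries. For LEU4 to LEU9 the ratio was 2.48, 2.41 and 1.91 in scc2-4, against 4.14, 2.47 and 2.16 in WT. The genotypes overlapped, and WT replicate 1 stood apart from the other 5 libraries (exact two-sided permutation p = 0.5; n = 3 each). Without that library the log2 difference was -0.034, compared with -0.31 with all 6. For ILV2 to ILV6 the ratio was 1.74, 1.25 and 1.55 in scc2-4, against 1.71, 2.13 and 2.65 in WT. Here too the genotypes overlapped, through WT replicate 1 (log2 difference -0.50; exact two-sided permutation p = 0.2; n = 3 each). Without that library the log2 difference was larger, at -0.66, and the genotypes did not overlap.

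**Figure D3:**
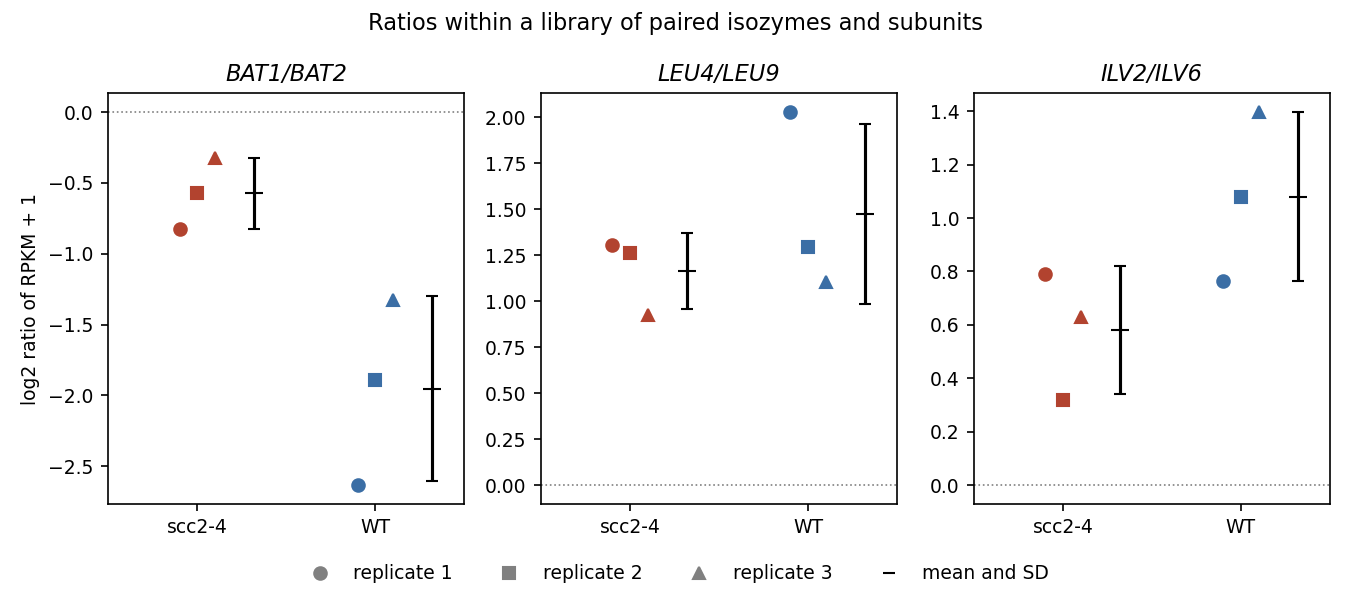
Log2 ratio of RPKM + 1 between partner genes in each library, with scc2-4 left of WT in each panel; symbols mark replicates, bars show mean and SD (n = 3 per genotype), and the dotted line marks equal levels. The 3 scc2-4 values of BAT1/BAT2 lie between -0.82 and -0.32, all above the WT values of -2.63 to -1.33.

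All members were well expressed, with 1063 to 26830 reads behind each value. Per length, their mean levels fell between the 85.8th and 97.9th percentile of protein-coding features in scc2-4 and between the 78.8th and 96.5th in WT. In scc2-4 the order of mean RPKM was ILV5, ILV3, LEU1, LEU4, ILV2, ILV1, BAT2, ILV6, LEU9 and BAT1. Neighbours in that order overlapped in range, except ILV3 above LEU1, ILV2 above ILV1 and ILV1 above BAT2. In WT the order was ILV3, ILV5, BAT2, LEU1, LEU4, ILV2, ILV1, BAT1, ILV6 and LEU9, and neighbours overlapped except ILV2 above ILV1 and ILV1 above BAT1. BAT2 thus ranked 7 of the 10 in scc2-4 and 3 in WT. The RPKM of the 10 genes summed to 2890, 3247 and 3521 in scc2-4 replicates 1 to 3, against 1981, 2575 and 2582 in WT replicates 1 to 3. The genotypes did not overlap, and the mean was 1.35-fold higher in scc2-4 (exact two-sided permutation p = 0.1, the smallest possible; n = 3 each). These genes held 0.460% to 0.559% of the reads assigned to features in scc2-4 and 0.313% to 0.419% in WT.

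WT replicate 1 stood apart from the other libraries. Across features its correlation with the other WT libraries was 0.977 and 0.968, against 0.990 to 0.993 among the scc2-4 libraries and 0.993 between WT replicates 2 and 3. Between genotypes, correlations with the scc2-4 libraries were 0.957 to 0.973 for WT replicates 2 and 3 and 0.904 to 0.926 for WT replicate 1. WT replicate 3 was thus closer to scc2-4 replicates 1 and 2 (0.973 and 0.970) than to WT replicate 1. On the centred log2 scale, 9 of the 10 members were below the WT mean in WT replicate 1, all but BAT2, with a median of -0.36. For comparison, the median stood at 0.38, 0.45 and 0.66 in the scc2-4 libraries and at 0.18 and 0.24 in the remaining WT libraries. LEU4 was the steadiest member within WT, between -0.015 and 0.024, and ILV5 the most variable, between -0.70 and 0.42. The part of that library's state in the results was not tested beyond the values without it. Depth was 14930000 to 21930000 reads in scc2-4 and 14730000 to 17670000 in WT. Of the markers of BY4741, LEU2 and MET17 were listed at 0 in all libraries and URA3 at 0 to 0.06 RPKM, while HIS3, of which the strain keeps a part, was at 38.7 to 55.3 RPKM. The 6 a-cell genes were at 45.1 to 749 RPKM and the 4 alpha-cell genes at 0.09 to 10.5 RPKM over all libraries.

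**Figure D4:**
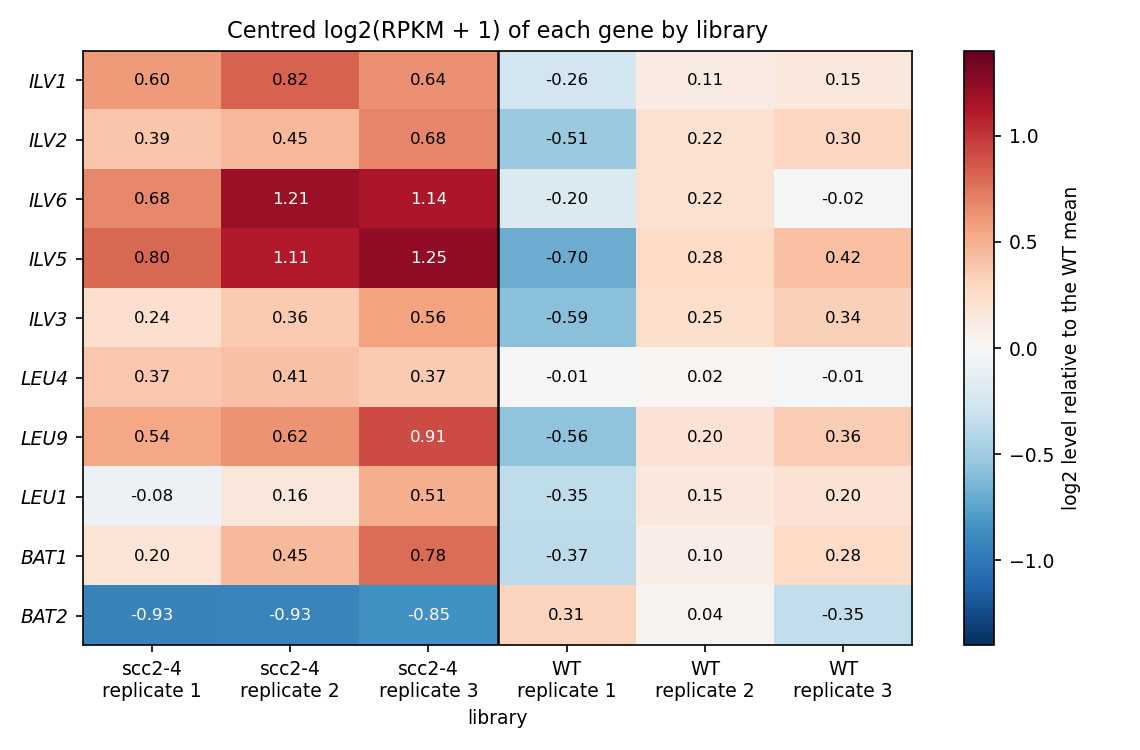
Centred log2(RPKM + 1) of each gene in each library relative to the WT mean, with the 3 scc2-4 libraries left of the 3 WT libraries; red is above the WT mean and blue below. In WT replicate 1, BAT2 is above the WT mean at 0.31 and the other 9 genes are below it.

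Across the 6 libraries, the 36 pairs of members without BAT2 had Pearson correlations of 0.37 to 0.99, with a median of 0.88, and the 9 pairs with BAT2 had -0.97 to -0.53. These describe 6 points that share 2 genotypes and the distance of WT replicate 1. The features whose levels were most like the mean standardised level of the 10 members were NPT1, YLR108C, YKR043C, RPL17B and EKI1, with Pearson r of 0.996, 0.996, 0.995, 0.995 and 0.994 over 6 libraries. None of these 5 passed the test, and their changes were 1.14-fold to 1.38-fold. Such correlations were common, since 1060 of the 5334 features compared exceeded 0.9.

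Among the regulators of the pathway, none of the 6 genes of Leu3 and the Gcn kinase pathway passed, and their log2 changes, all above 0, ran from 0.034 to 0.37. LEU3, the gene for the pathway's own activator, stood at 13.8, 14.2 and 16.6 RPKM in scc2-4, against 9.77, 12.2 and 12.0 RPKM in WT (1.30-fold, 95% interval 1.02 to 1.65; limma adjusted p = 0.0891). GCN4, whose protein is known to be set mainly by translation, stood at 254, 284 and 290.4 RPKM in scc2-4, against 212, 220.2 and 222 RPKM in WT (1.28-fold, 95% interval 1.06 to 1.54; limma adjusted p = 0.0546). Genotypes did not overlap for 3 of the 6 genes, LEU3 and GCN4 among them, against 54.5% of all features tested. GCN4 passed under 5 alternatives, with limma adjusted p from 0.0395 to 0.176 over all of them, and its log2 change was between 0.29 and 0.42. Of 6 genes of the plasma membrane amino acid sensor and its effectors, 1 rose, against 17.5% of all features tested. That gene, DAL81, a transcription factor gene on chromosome IX, stood at 9.74, 11.5 and 13.3 RPKM in scc2-4, against 3.82, 4.76 and 5.15 RPKM in WT (2.26-fold; limma adjusted p = 0.00567). It overlaps YIR023C-A, and of the 244 features tested on that chromosome 174 rose and 5 fell, with a median of 1.76-fold. The part of that chromosome in the change of DAL81 was not tested. No member lies on chromosome IX or I.

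Some uptake genes fell. Of 7 genes for permeases and mitochondrial carriers, 3 fell, none rose and 4 did not pass, with a median log2 change of -0.25. Among all features tested, 15.0% fell and 17.5% rose, and the difference from these shares was not tested. AGP1, a broad permease gene that also carries branched-chain amino acids, stood at 76.1, 64.4 and 58.4 RPKM in scc2-4, against 342, 223 and 218 RPKM in WT. Every mutant library lay far below every WT library, and AGP1 was 3.80-fold lower (limma adjusted p = 0.00168). BAP2, a branched-chain permease gene, stood at 285, 286 and 254 RPKM in scc2-4, against 359, 361 and 359 RPKM in WT (1.30-fold lower; limma adjusted p = 0.0303). Its call held among the fits without a library only without WT replicate 1, and ended without WT replicates 2 and 3 (0.0870 and 0.0658) and scc2-4 replicates 1, 2 and 3 (0.0861, 0.0844 and 0.112), with values of 0.00818 to 0.112 across alternatives. LEU5, a mitochondrial carrier gene linked to coenzyme A, stood at 13.3, 11.9 and 13.4 RPKM in scc2-4, against 25.6, 19.8 and 21.1 RPKM in WT (1.65-fold lower; limma adjusted p = 0.00471). OAC1, a mitochondrial oxaloacetate carrier gene known as a Leu3 target, had a log2 change of 0.46 that did not pass (limma adjusted p = 0.117). For BAP3, TAT1 and GNP1 the log2 changes were -0.25, -0.040 and 0.023, and none passed. The sign of the TAT1 value turned without WT replicate 2 or 3 and that of GNP1 without WT replicate 1, and TAT1 passed as lower without WT replicate 1 (limma adjusted p = 0.0240; highest across alternatives 0.959).

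Among 7 genes that make or use threonine, the substrate of ILV1, 2 rose, none fell and 5 did not pass, with a median log2 change of 0.31. Of all features tested 17.5% rose and 15.0% fell, and the difference from these shares was not tested. THR1, the homoserine kinase gene, stood at 156, 179.9 and 146 RPKM in scc2-4, against 104, 119 and 110.0 RPKM in WT (1.45-fold; limma adjusted p = 0.0208). AAT2, the cytosolic aspartate aminotransferase gene, stood at 355, 389.7 and 362 RPKM in scc2-4, against 293, 300.5 and 283 RPKM in WT (1.27-fold; limma adjusted p = 0.0400). Genotypes did not overlap for either gene. The call on THR1 ended without scc2-4 replicate 1, 2 or 3 (limma adjusted p = 0.0580, 0.0814 and 0.0569; lowest over the alternatives 0.0137), and that on AAT2 without any library but WT replicate 1 (0.0742 to 0.145; lowest 0.0304). HOM3, HOM2, HOM6, THR4 and CHA1, a catabolic threonine and serine deaminase gene, had log2 changes of 0.47, 0.31, -0.048, 0.26 and -0.33.

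Of 9 genes for breakdown of branched-chain amino acids to fusel alcohols and esters, 3 fell, 2 rose and 4 did not pass. The shares over all features tested were 15.0% lower and 17.5% higher, and the difference from them was not tested. ARO10, a keto acid decarboxylase gene, stood at 20.6, 20.3 and 18.0 RPKM in scc2-4, against 42.9, 26.0 and 26.1 RPKM in WT (1.53-fold lower; limma adjusted p = 0.0301). Its call ended without any scc2-4 replicate and with no centring (limma adjusted p = 0.0502), with values of 0.00697 to 0.101 across alternatives. SFA1, an alcohol dehydrogenase gene, rose 1.44-fold, and THI3 and the acetyltransferase gene ATF1 fell by 0.34 and 0.31 on the log2 scale (limma adjusted p = 0.0163, 0.0336 and 0.0388). Among the fits that left out a library, these calls ended without scc2-4 replicate 2 or 3 for all 3 genes. In those fits they ended also without scc2-4 replicate 1 and WT replicate 3 for THI3 and ATF1, and without WT replicate 2 for ATF1; over the alternatives the ranges were 0.00999 to 0.0692 for SFA1, 0.0289 to 0.105 for THI3 and 0.0236 to 0.138 for ATF1. PDC6, the other gene that rose, was near the lowest measured levels, at 1.15 to 2.2 RPKM in scc2-4 and 0.44 to 0.80 RPKM in WT, and its call (limma adjusted p = 0.0409) ended with a pseudocount of 0.1, with no centring, with quantile normalization and without any 1 library (without a library, limma adjusted p = 0.0563 to 0.130; lowest over the alternatives 0.0171).

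Pantothenate synthesis draws on the keto acid precursor of valine. Of its 3 genes, 2 rose, against 17.5% of all features tested, and the difference from this share was not tested. PAN6, on chromosome IX, stood at 152, 165 and 163 RPKM in scc2-4, against 74.9, 78.4 and 73.6 RPKM in WT (2.11-fold; limma adjusted p = 0.00168), and its genotypes were far apart. ECM31, the gene for the hydroxymethyltransferase that uses the keto acid, stood at 23.2, 20.4 and 24.3 RPKM in scc2-4, against 14.4, 17.0 and 15.8 RPKM in WT (1.42-fold; limma adjusted p = 0.0220). The call on ECM31 ended without scc2-4 replicate 1, 2 or 3 (limma adjusted p = 0.0687, 0.0513 and 0.0881; lowest over the alternatives 0.0171). Iron-sulfur cluster assembly serves ILV3 and LEU1. Of its 22 measured genes 7 rose, 2 fell and 13 did not pass, with a median log2 change of 0.10. Background shares were again 17.5% higher and 15.0% lower, and the difference from them was not tested. The smallest p-values belonged to CFD1 (2.14-fold; limma adjusted p = 0.00325) and MET18 (2.41-fold; limma adjusted p = 0.00349), both factors of cytosolic assembly and both on chromosome IX. On that chromosome 174 of the 244 features tested rose, and its part in these changes and in that of PAN6 was not tested.

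Other amino acid pathways that respond to Gcn4 gave these counts from the same libraries, in which 17.5% of all features tested rose and 15.0% fell. Of 9 arginine genes 7 rose and none fell, with a median log2 change of 0.98. ARG4, the argininosuccinate lyase gene, was 2.28-fold higher (limma adjusted p = 0.00168). Of 8 lysine genes 6 rose and none fell, with a median of 0.68, led by LYS1 (3.11-fold) and LYS12 (2.45-fold), both on chromosome IX (limma adjusted p = 0.00150 and 0.00238). Of 7 histidine genes 3 rose and 1 fell, with a median of 0.20, led by HIS5 (1.93-fold) and HIS6 (2.40-fold), also both on chromosome IX (limma adjusted p = 0.00313 and 0.00487). On chromosome IX 174 of the 244 features tested rose, and its part in these counts was not tested. The difference between these lists and the branched-chain genes was not tested.

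**Figure D5:**
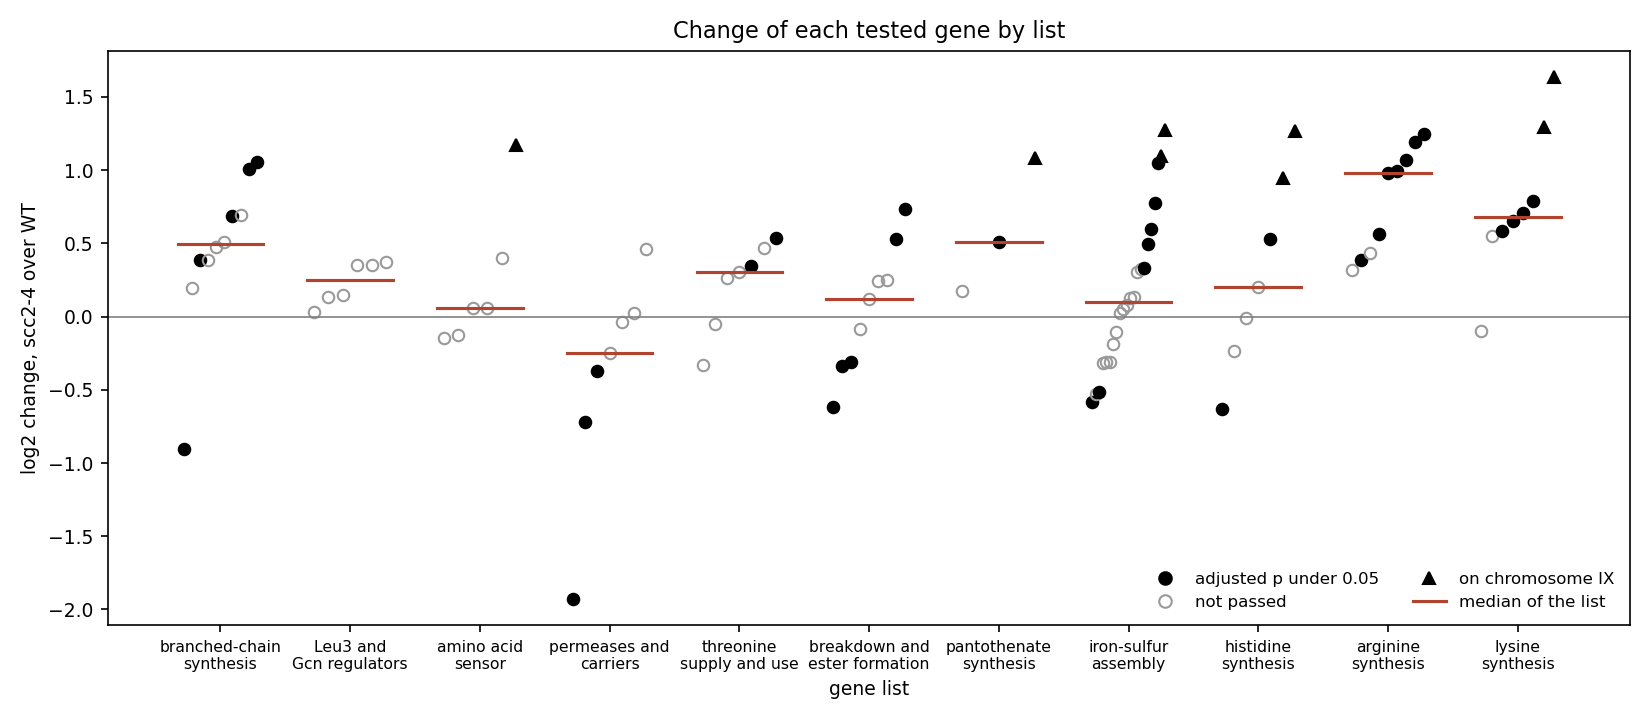
Log2 change, scc2-4 over WT, of each tested gene in the branched-chain list and in lists of related genes; filled symbols passed an adjusted p of 0.05 in limma, triangles lie on chromosome IX, and red lines are list medians. The branched-chain genes run from -0.90 for BAT2 to 1.05 for ILV5, and the lowest point in the plot is AGP1 at -1.93.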

How the data were processed

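RNA sequencing values of 3 scc2-4 and 3 WT libraries were used. The authors deposited RPKM per feature. Reads were aligned with Bowtie to sacCer3, per the submitters' processing notes; the counting tool and the treatment of repeated reads were not given in the sources used here. Multiplied by the distance from the first to the last base of each feature, RPKM summed to about 1000000 in each column. Depths were taken as the read numbers at which low values came closest to whole reads. At these depths, low values of features up to 500 bases were whole reads within 0.1 read (100% of those up to 100 reads). Of 7130 identifiers 6048 were in the R64 annotation, and all 10 members had the same start and end there.

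A mean RPKM of at least 1 was required (6559 features), log2(RPKM + 1) was centred on each library's median (difference between genotypes before centring -0.010), and genotypes were compared with limma 3.58.1 (empirical Bayes with a trend) in R 4.3.3. A fold change on this scale understates changes of low values. Ratios and sums were compared by exact permutation with scipy 1.17.1. The script was tested on simulated data. Python 3.11.15 and matplotlib 3.10.9 were used elsewhere. Columns entered by genotype; 6 of the 9 listed libraries could be used and the others were not analysed here.

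All 10 members and the genes of the related lists were named, with the 2 smallest p-values for histidine, arginine, lysine and iron-sulfur genes (1 arginine gene is not reported here), and the 5 features most like the members' mean standardised level with mean RPKM of at least 10. Members and lists were chosen with earlier results of these data known. Alternatives were other pseudocounts, filters, scalings and sets of features, no trend, a replicate block and leaving out each library.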

Additional observations from a re-analysis of the deposited data

How the results depend on the processing

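Leaving out 1 library moved the number of members higher to between 1 and 5 (4 with all libraries), and 1 member was lower each time. Over all features the counts ran from 373 to 1360 higher and from 386 to 1123 lower. Among the other 10 alternatives, members higher numbered 3 to 6 and members lower 1. Without features that overlap another, LEU4 and LEU9 had no value and 3 members were higher. With the column number as a replicate block, 6 members were higher, with BAT1 (adjusted p = 0.0215) and LEU9 (0.0245) added in limma. Deviations of same-numbered libraries correlated at 0.31, -0.062 and 0.35, and those of other-numbered libraries at -0.40 to 0.26. The same-numbered value was the highest for scc2-4 replicates 1 and 3 but not for replicate 2. The numbers were not taken to pair the samples in the main fit, and whether they do was not tested. Over all features the block gave 1270 higher and 1071 lower, and it ended the calls on THI3 and ATF1 (0.0563 and 0.0598) and started those on LEU3 (0.0492) and HOM3 (0.0278). Differences of the 3 ratios and of the summed RPKM kept their sign under all alternatives run. Values that changed sign were GCN1 without WT replicate 1 (-0.10) and scc2-4 replicate 2 (-0.041), GCN20 without WT replicate 1 (-0.012), STP1 without WT replicate 2 (-0.014), TAT1 without WT replicates 2 and 3 (0.068 and 0.085) and GNP1 without WT replicate 1 (-0.12). Leaving out 1 library, their highest values were 0.12 for GCN1, 0.22 for GCN20, 0.088 for STP1 and 0.13 for GNP1, and the lowest for TAT1 was -0.27. None of these 5 genes passed with all libraries, and the cause was not tested. Each member value rested on at least 1063 reads, and the effect of depth was not tested. With 3 libraries a genotype, no exact test of a single value could go below 0.1.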
